A study of Mus musculus with 4 samples.

Results

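The teneurins and the latrophilins are 7 genes in mouse, namely Tenm1, Tenm2, Tenm3 and Tenm4 (older symbols Odz1 to Odz4) and Adgrl1, Adgrl2 and Adgrl3 (older symbols Lphn1 to Lphn3). Every probe set that the platform annotation gives to exactly 1 of these genes was taken, which yielded 22 of the 34945 probe sets with a single gene, 11 for the teneurins and 11 for the latrophilins. They were compared between 2 populations of retinal neurons sorted from mice of mixed C57Bl6 x CD1 strain at postnatal day 6, offspring of males carrying the MP transgene and non-carrier females. All cells carried the MP transgene and were sorted for CFP, a cyan fluorescent protein. MP amacrine cells were also positive for VC1.1, the surface epitope used to part amacrine from bipolar cells, and MP bipolar cells were the VC1.1-negative cells left after VC1.1-positive cells had been held back on a magnetic column. Each group had 2 replicates from different litters, about 1000 cells each, and each replicate was measured on 1 Affymetrix array after 2 rounds of RNA amplification. The labels do not name the promoter of the transgene, and each group is the CFP-positive fraction of its cell class rather than the whole class.

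Teneurins are large single-pass membrane proteins whose extracellular part holds EGF-like repeats and a barrel of tyrosine-rich repeats. They bind teneurins on facing cells and, across the synapse, the latrophilins, which are adhesion G protein-coupled receptors (GPCRs) first known as receptors of black widow spider toxin. Latrophilins bind FLRT proteins as well, and FLRT proteins bind the netrin receptors of the Unc5 family. In the visual system teneurins are known for matching synaptic partners and for ordering retinal projections. The comparison asks which of these ligands and receptors separated the amacrine from the bipolar cells of the inner retina.

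The median intensity of an array lay between 44.5 and 47.1. A gene is called here where its adjusted p was under 0.05, which held for 13.5% of the 11583 genes tested. Some amacrine and bipolar markers were above the median of every array. Of these, the amacrine gene Slc32a1 read 1292 and 1025 in amacrine against 101 and 99.98 in bipolar samples. The bipolar gene Otx2 read 1523 and 1646 against 3718 and 3848. Tfap2a was called higher in amacrine and Vsx1 higher in bipolar cells. The amacrine gene Gad2 overlapped between groups (169 and 216 against 131 and 190) and was not called. The bipolar gene Prkca was not called either, with 490 and 478 against 394 and 418. The amacrine genes Tfap2b, Tfap2c and Neurod6 and the bipolar gene Fezf2 were above the median only in the group where they were high. They passed the filter through that group, so their direction is no check of the groups. Trpm1, a channel of ON bipolar cells, lay below the median of all 4 arrays. MP amacrine replicate 2 stood apart in its actin control, whose log2 ratio of 3-prime to 5-prime signal was 3.82 there and 1.89 to 2.13 elsewhere. MP amacrine replicate 1 stood apart in the neurofilament gene Nefm, listed as a ganglion cell marker, with 1631 against 35.0 to 136 elsewhere. The horizontal cell marker Calb1 was also high there, with 517 against 17.0 to 39.5 elsewhere. So was the horizontal cell marker Lhx1, which was not tested, with 51.2 against 3.79 to 10.6 elsewhere. Septin4, of the same list, read 632 there, 112 in MP amacrine replicate 2, and 561 and 617 in bipolar samples. The ganglion cell marker Rbpms (39.2 against 35.5 to 50.7) did not stand out. Neither did the horizontal cell markers Onecut1 (48.2 against 30.4 to 54.1) and Onecut2 (191 against 172 to 453). The 4 rod photoreceptor markers on the arrays lay above the median of every array, and none was called. Their summed levels were 10392.5 and 6131 in amacrine and 6906 and 8389 in bipolar samples. Nrl (2028 and 1172 against 891 and 850) and Pde6b (890 and 514 against 400 and 379) were higher in amacrine samples without overlap. Such a gap was seen for 53.3% of all tested genes. Sag and Gngt1 overlapped between the groups. Which cells these signals came from was not tested. The number of arrays, 2 per group, limits the precision of every value.

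Tenm3 was the member with the largest difference, and it was higher in MP bipolar cells. Its brighter probe set, 1429178_at, had intensities of 639 and 705 in the amacrine replicates, against 1651 and 1991 in the bipolar replicates. Both bipolar arrays thus lay above both amacrine arrays, and the gap between the groups was wider than the spread within either. The group means were 672 ± 46.5 and 1821 ± 240.5 (SD, n = 2), a ratio of 2.71. On the log2(intensity + 16) scale Tenm3 was 1.41 higher in bipolar cells (amacrine minus bipolar -1.41, SE 0.19, adjusted p = 0.00173, limma), and 3.26% of all tested genes were shifted at least as far toward bipolar cells. Tenm3 encodes a teneurin that guides the mapping of retinal axons from each eye onto their brain targets. The other probe set, 1449315_at, whose target is a RefSeq mRNA of the gene, read 141 and 387 in amacrine and 651 and 731 in bipolar samples. It had the same direction and a like size (-1.49, 95% interval -2.52 to -0.46), but the amacrine arrays differed from each other and it did not pass when probe sets were tested singly (adjusted p = 0.0921, limma). With each replicate left out in turn the difference of 1429178_at ranged from -1.55 to -1.28, and it passed each time. Against 13.5% of all tested genes, 1 of 5 tested ganglion cell markers was called, and that 1 was higher in bipolar cells. This was Thy1, with 806 and 1455 against 2462 and 3415. The other 4 were not called and went the other way, toward amacrine cells. Their log2 differences were 1.08 for Pou4f1, 0.30 for Slc17a6, 2.23 for Nefl and 3.13 for Nefm. Nefm and Nefl were high on 1 array only, MP amacrine replicate 1, with 1631 and 1102 there against 136 and 87.5 in MP amacrine replicate 2. The summed level of the list overlapped between the groups, at 1878 to 3833 in amacrine and 2752 to 3630.3 in bipolar samples. Without MP amacrine replicate 1 the Tenm3 difference was -1.34 (adjusted p = 0.00448, limma). In sorted samples of this kind, a change in the number of expressing cells and a change in RNA per cell cannot be told apart.

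Tenm2, a teneurin known as a high-affinity ligand of the latrophilin Adgrl1, went the other way and was modestly higher in MP amacrine cells. Its brightest probe set, 1457273_at, read 3650.4 and 3574 in amacrine and 2706 and 2334 in bipolar samples, so the groups did not overlap. The means were 3612 ± 53.9 and 2519.6 ± 263 (SD, n = 2), a ratio of 1.43 and a log2 difference of 0.52 (SE 0.12, adjusted p = 0.0246, limma). Of all tested genes, 11.5% were shifted at least as far toward amacrine cells, so the size of the difference was not unusual in this comparison. The other 3 probe sets of the gene also had positive differences, and 2 of them, 1454424_at and 1432988_at, share a target clone. The next brightest, 1454424_at, gave 0.52 from intensities of 1213 and 1936 against 1180.4 and 961, without overlap, although the lower amacrine array lay close to the higher bipolar array. Probe set 1420718_at (97.5 and 72.3 against 56.5 and 60.0) gave 0.43 without overlap. In 1432988_at (73.7 and 139 against 111 and 65.8) the groups overlapped and the difference was 0.21. Tested singly, 1457273_at passed (adjusted p = 0.0478) and the other 3 did not (adjusted p = 0.319 to 0.803, limma). The Tenm2 call was lost without MP bipolar replicate 1 (log2 difference 0.63, adjusted p = 0.0535) and without MP bipolar replicate 2 (0.41, adjusted p = 0.224). It was also lost with no filter on dim probe sets and with other choices among its probe sets. Against 13.5% of all tested genes, 2 of the 6 tested Müller glia markers were called, both higher in MP amacrine cells. They were Dkk3 and Slc1a3, the second above the median only on the amacrine arrays. Of the 4 not called, Clu went the other way (188 and 128 against 261 and 323). Rlbp1 (80.9 and 156 against 20.8 and 58.8) and Apoe (190 and 120 against 94.5 and 9.81) were higher in amacrine samples without overlap. Such a gap was seen for 53.3% of all tested genes. The list had summed levels of 2663 to 2863 in amacrine and 2055 to 2416 in bipolar samples. Most of each sum was Glul, which overlapped between groups (2103 and 1870 against 1594 and 1937). The part of these markers in the Tenm2 difference was not tested.

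Sequences around annotated starts of these 2 genes are shown because they are the members that passed the test, in opposite directions. Both genes lie on the minus strand of GRCm38.p6, Tenm3 on chromosome 8 from 48225665 to 49522824 and Tenm2 on chromosome 11 from 36006656 to 37237053. RefSeq windows from 250 bases before to 50 bases after a start were found for all 7 members, 10 windows in all. The windows printed here lie inside the annotated span of each gene and not at its outer end, and the arrays do not tell which start was in use. They are printed 5′ to 3′ on the strand of the gene, with matches to 3 motifs in capitals. The first motif was CAGATG, an E-box form bound by NeuroD-type factors. The second was TAATTA, which many homeodomain proteins bind. The third was TGACGTCA, the cAMP response element. Both strands were searched, and the letters of the 3 motifs do not contain one another.
Tenm3, chr8:48674641-48674940, minus strand: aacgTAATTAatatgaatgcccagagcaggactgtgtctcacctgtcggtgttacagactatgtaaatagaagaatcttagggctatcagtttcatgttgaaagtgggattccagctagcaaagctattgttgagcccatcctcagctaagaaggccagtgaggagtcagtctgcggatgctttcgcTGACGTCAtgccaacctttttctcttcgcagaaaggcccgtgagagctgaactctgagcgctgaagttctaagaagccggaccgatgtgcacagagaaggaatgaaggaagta
Tenm2, chr11:36944192-36944491, minus strand: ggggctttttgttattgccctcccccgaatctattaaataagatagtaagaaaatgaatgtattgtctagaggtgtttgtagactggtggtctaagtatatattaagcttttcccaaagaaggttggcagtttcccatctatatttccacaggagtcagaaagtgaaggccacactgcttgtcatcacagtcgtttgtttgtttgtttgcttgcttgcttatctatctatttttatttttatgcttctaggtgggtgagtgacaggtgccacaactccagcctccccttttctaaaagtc
The Tenm3 window held 1 TAATTA, which began 246 bases upstream of the start, and 1 TGACGTCA, which began 63 bases upstream. The Tenm2 window held none of the 3. Among the other members, 1 of the Adgrl3 windows held the E-box on the opposite strand, as CATCTG, and no other match was found. Of all 32851 windows of 300 bases, 17.2% held the E-box, 5.29% held TAATTA and 1.79% held TGACGTCA. The motifs were chosen with the sequences in view, so these shares do not measure how unusual the matches are. A match describes letters in the sequence and shows no binding.

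**Figure D1:**
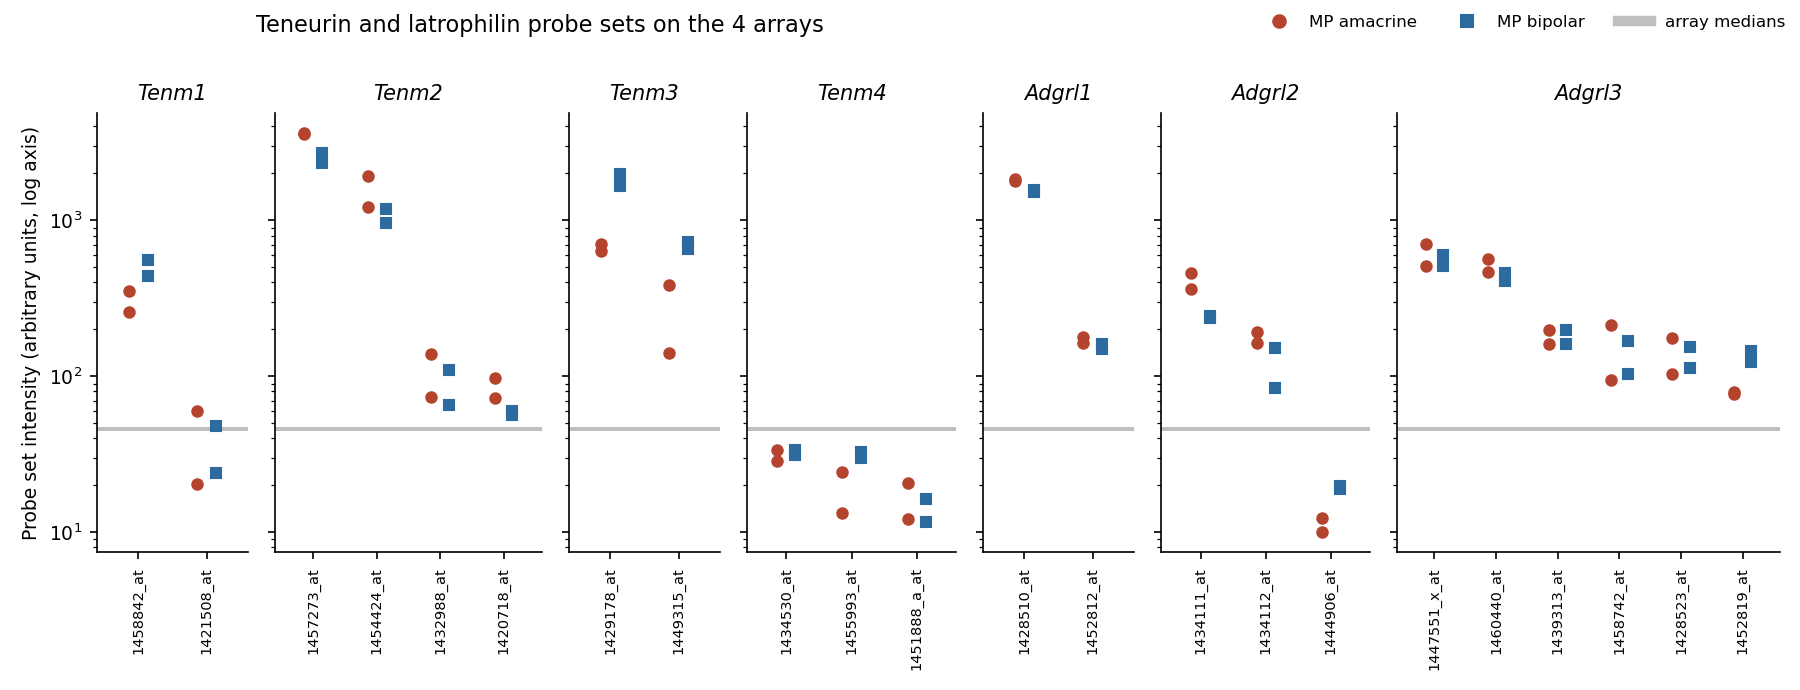
Intensity of each of the 22 probe sets (log axis, arbitrary units) by gene, with circles for the 2 MP amacrine arrays, squares for the 2 MP bipolar arrays and a grey band for the medians of the arrays. In Tenm3 both bipolar arrays lie above both amacrine arrays for both probe sets, and all 3 Tenm4 probe sets lie below the band.

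The remaining teneurins gave no call. Tenm1, on chromosome X from 42527866 to 43429168, encodes the X-linked teneurin. Its brighter probe set, 1458842_at, read 353 and 259 in amacrine and 441 and 558 in bipolar samples. The groups did not overlap, but the log2 difference of -0.69 (95% interval -1.27 to -0.10, SE 0.25) did not pass over all genes (adjusted p = 0.131, limma). The other Tenm1 probe set, 1421508_at, was near the array median, at 20.3 and 59.6 against 47.9 and 24.1, and its difference of 0.05 had an interval from -0.89 to 0.99. The direction of Tenm1 therefore differed between its probe sets, and 1 of the 18 alternatives, the one that took the second brightest probe set, gave a positive value.

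Tenm4, on chromosome 7 from 96171244 to 96911093, encodes a teneurin known from the maturation of oligodendrocytes. All 3 of its probe sets lay below the median of every array, between 11.6 and 34.0, and the gene was not tested. The brightest, 1434530_at, read 34.0 and 28.7 in amacrine and 33.6 and 31.2 in bipolar samples. A level this low does not show that the transcript was absent.

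The latrophilins gave no call among 3 tested genes. Adgrl2 came nearest. It encodes the latrophilin that opposes Tenm3 in the wiring of the hippocampus, and it lies on chromosome 3 from 148815586 to 148989096. Probe set 1434111_at read 362 and 459 in amacrine and 236 and 243 in bipolar samples, a ratio of means of 1.71 without overlap. Its log2 difference was 0.73 (95% interval 0.20 to 1.26, SE 0.23, adjusted p = 0.0816, limma). The next probe set, 1434112_at, was built on the same tag and had the same direction (163 and 194 against 152 and 83.7, difference 0.58). The third, 1444906_at, was below the median of all arrays and read 9.99 and 12.4 against 19.0 and 19.9. Without MP amacrine replicate 1 Adgrl2 was called, with a difference of 0.89 (adjusted p = 0.0493), and its adjusted p lay between 0.0493 and 0.341 over 18 alternatives.

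Adgrl1, the founding latrophilin and a receptor of Tenm2, lies on chromosome 8 from 83900098 to 83941954. It was close to even between the populations. Probe set 1428510_at read 1844 and 1784 in amacrine and 1525 and 1557 in bipolar samples. The arrays of each group lay close together and the groups did not overlap, but the ratio of means was only 1.18 and the log2 difference of 0.23 (95% interval -0.10 to 0.57, SE 0.14) did not pass (adjusted p = 0.384, limma). The interval leaves room for a difference of up to 0.57 toward amacrine cells. The other Adgrl1 probe set, 1452812_at, read 179 and 164 against 161 and 150.5, a difference of 0.13. Both were built on the same expressed sequence tag, so they are not separate evidence on the gene.

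Adgrl3, a latrophilin that binds FLRT3 and teneurins together, lies on chromosome 5 from 81019085 to 81827825 and had 6 probe sets, all above the median of every array. The brightest, 1447551_x_at, can by its design match other transcripts. It read 509 and 701 in amacrine and 508 and 602 in bipolar samples, and its difference of 0.11 (95% interval -0.45 to 0.66) was smaller than the spread between replicates (adjusted p = 0.852, limma). The next, 1460440_at, gave 0.24. For 4 of the 6 probe sets the groups overlapped. Probe set 1452819_at stood apart from the others, with 79.1 and 77.0 in amacrine and 123 and 145 in bipolar samples, a difference of -0.67 (95% interval -1.17 to -0.17). It did not pass when tested singly (adjusted p = 0.115, limma). This probe set, 1428523_at and 1460440_at were built on the same expressed sequence tag, and their differences were -0.67, 0.02 and 0.24, so probe sets of 1 target did not share a sign. Whether they differ from each other was not tested.

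**Figure D2:**
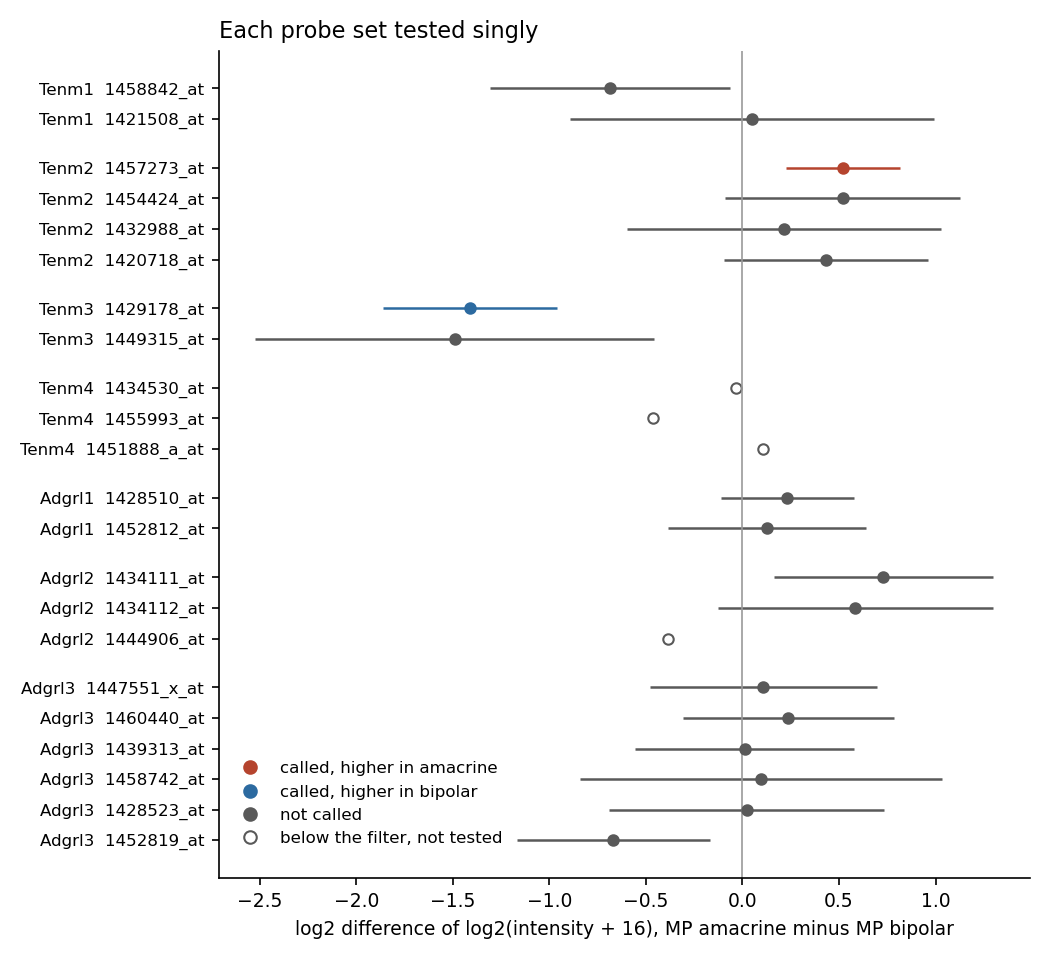
Log2 difference of each of the 22 probe sets, MP amacrine minus MP bipolar, with 95% intervals from limma for the 18 that were tested, and open circles for the 4 below the filter. Tenm2 (1457273_at, 0.52) and Tenm3 (1429178_at, -1.41) are the probe sets that passed when each was tested singly.

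Across the family, 6 of 7 genes were tested, all 6 above the median on all 4 arrays, and 2 were called, 1 in each direction. Of all tested genes 13.5% were called, 6.54% as higher in MP amacrine and 6.92% as higher in MP bipolar cells. Both called members are teneurins and none of the 3 latrophilins was called, but a difference between the families was not tested. Of the 6 genes, 5 had both arrays of 1 group on one side of both arrays of the other, as did 53.3% of all tested genes. The median absolute log2 difference of the 6 was 0.60, against 0.26 over all tested genes, and their median signed difference was 0.17, against -0.03. Of the 18 probe sets tested singly 2 passed, against 9.46% of all 23648, and 12 did not overlap between groups, against 50.7%. With 6 genes these values describe the family and do not set it apart from other genes.

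**Figure D3:**
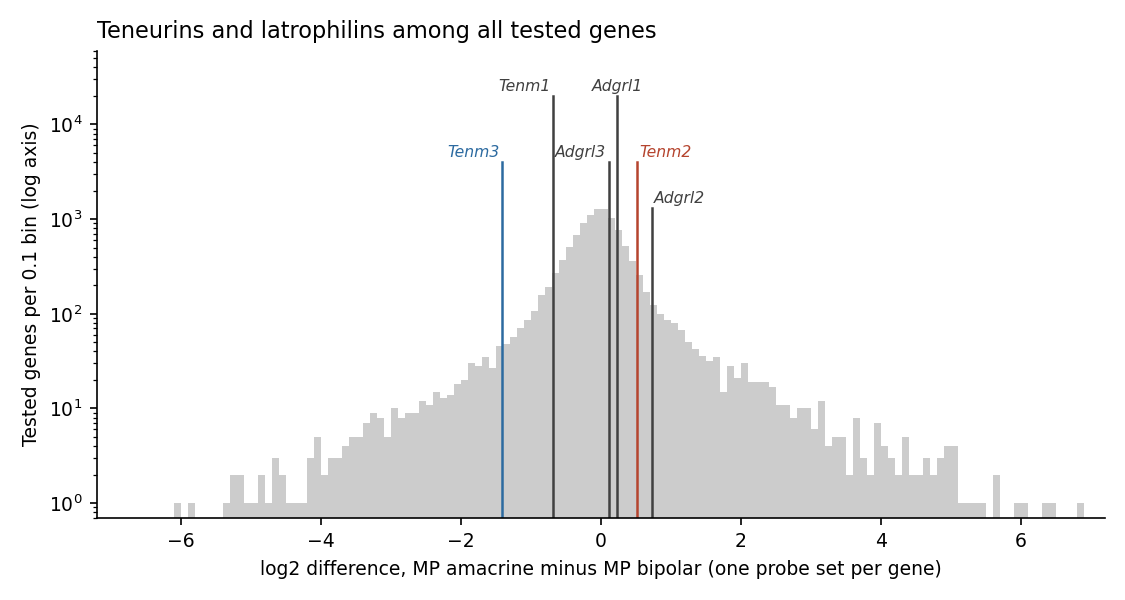
Number of tested genes per 0.1 of log2 difference, MP amacrine minus MP bipolar (log axis), with lines at the 6 tested teneurins and latrophilins. Tenm3, at -1.41, lies furthest from 0, and Adgrl2, at 0.73, is the member furthest toward amacrine cells although it was not called.

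The list of extracellular partners holds proteins that bind teneurins or latrophilins, and the Unc5 receptors, which bind the FLRT ligands of latrophilins. It had 2 called genes of 9 tested, both higher in MP bipolar cells, against 13.5% of all tested genes called in either direction. Unc5d, a netrin receptor that also binds FLRT2, read 741 and 708 in amacrine and 1694 and 1909 in bipolar samples, so the groups did not overlap. Its difference was -1.29 (SE 0.17, adjusted p = 0.00190, limma), and it stayed called in all 18 alternatives. Nrxn3, a neurexin, which is an adhesion protein of the presynaptic membrane, read 1835 and 1988 against 3218 and 3364 (-0.78, SE 0.12, adjusted p = 0.00407, limma). All 5 of its probe sets had negative differences, from -1.85 to -0.60. The Nrxn3 call was lost when MP bipolar replicate 2 was left out (-0.75, adjusted p = 0.0553), as well as with its second brightest probe set (adjusted p = 0.0632).

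None of the FLRT genes, which encode the leucine-rich repeat ligands of latrophilins, passed. Flrt3 read 652 and 747 against 933 and 1009 (-0.47, adjusted p = 0.185). Flrt1 read 85.3 and 128 against 169 and 160.5 (-0.58, adjusted p = 0.185). Flrt2 had the opposite sign, with 57.6 and 50.1 against 18.1 and 32.6 (0.78, adjusted p = 0.0754, limma). The groups did not overlap at the brightest probe set of any FLRT gene, as was so for 53.3% of all tested genes, and the sign was shared by every probe set of that gene. The median difference of the 9 tested external partners was -0.47, against -0.03 over all genes. Flrt2 and Unc5b were above the median only on the arrays of the group where they were higher, so this median is no measure of the list.

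The intracellular partners are scaffolds, G protein subunits and a nuclear partner of the teneurin tail. Against 13.5% of all tested genes, 1 of the 8 tested was called. It was Shank3, a scaffold of the postsynaptic density whose family binds the latrophilin tail. Its only probe set read 116 and 112 in amacrine and 9.27 and 11.7 in bipolar samples, so the transcript was above the median only on the amacrine arrays. The log2 difference was 2.30 (SE 0.20, adjusted p = 2.17e-04, limma), but the value depends on the offset because the bipolar arrays were dim. It was 3.33 with an offset of 1 and 1.26 with an offset of 64, and the gene stayed called in all 17 alternatives that gave a value. The other 7 lay between -0.22 and 0.20. Since Shank3 passed the filter through the group where it was high, its call is no measure of the list.

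Other adhesion GPCRs, the receptor class to which latrophilins belong, were called for 3 of 9 tested genes, against 13.5% of all tested genes. Adgrb1 is a receptor for exposed phosphatidylserine that also organises synapses. It read 57.7 and 41.2 in amacrine and 150.2 and 180.4 in bipolar samples (-1.48, SE 0.23, adjusted p = 0.00389, limma). On MP amacrine replicate 2 it lay below the array median of 47.1. Its relative Adgrb2 read 187 and 122 against 332 and 304 (-0.99, SE 0.26, adjusted p = 0.0388, limma). Adgra1 went the other way, with 175 and 201 against 85.3 and 76.7 (1.07, SE 0.21, adjusted p = 0.0125, limma), and its other 2 probe sets were also positive, at 1.83 and, in the dimmer one that was not tested, 0.70. The calls of Adgrb2 and Adgra1 were lost without MP bipolar replicate 1 (adjusted p = 0.195 and 0.0691) and without MP bipolar replicate 2 (0.148 and 0.119). The Adgrb2 call was also lost without MP amacrine replicate 2 (adjusted p = 0.133) and after quantile, loess and median scaling. The genes that follow were picked after their values were seen. Adgrb3 (-0.10) and the planar polarity receptors Celsr2 (-0.10) and Celsr3 (-0.13) had differences close to 0. Adgre1, a macrophage receptor, read 125 and 206 against 96.3 and 55.6 and did not pass (adjusted p = 0.0824, limma). The microglia markers beside it had summed levels of 768 and 3040.0 in amacrine and 1295 and 183 in bipolar samples. These sums largely followed Ctss, which read 567 and 2665 in amacrine and 1003 and 2.27 in bipolar samples. None of the 3 tested markers was called, and C1qb had the opposite sign to Ctss (-0.28). The part of these markers in the Adgre1 values was not tested. Adgrl4, related to the latrophilins but outside the toxin receptor group, lay below every array median.

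**Figure D4:**
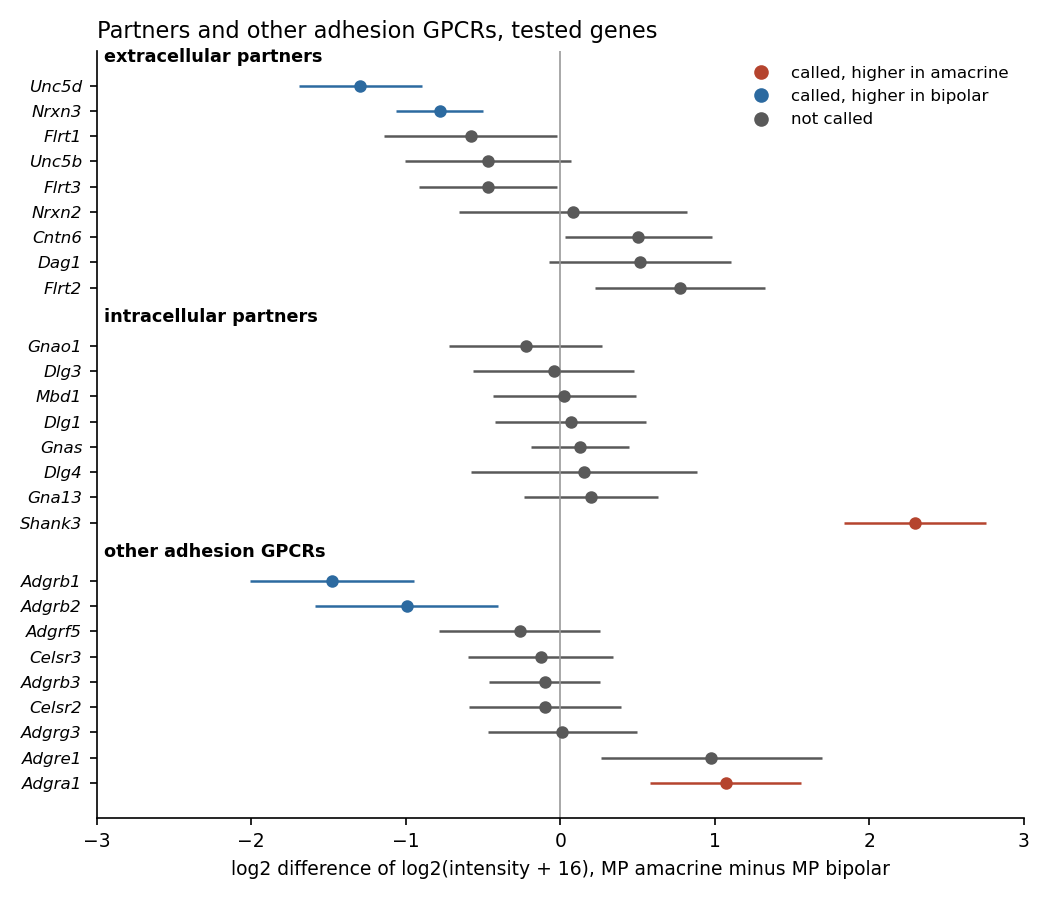
Log2 difference, MP amacrine minus MP bipolar, with 95% intervals from limma, for the tested partners of teneurins and latrophilins and the tested other adhesion GPCRs, 1 probe set per gene. Shank3, at 2.30 with an offset of 16, is dim in bipolar cells and its position depends on the offset, and Adgrb1 (-1.48), Unc5d (-1.29), Adgrb2 (-0.99) and Nrxn3 (-0.78) are those called higher in bipolar cells.

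The genes whose profile over the 4 arrays lay closest to Tenm3, by the distance between centred log2 values, were Septin10 (distance 0.08, log2 difference -1.47), Hspa12b (0.09, -1.36) and Akap7 (0.09, -1.43). Those closest to Tenm2 were Ier3ip1 (distance 0.03, log2 difference 0.54), Thumpd2 (0.05, 0.51) and Bcs1l (0.06, 0.53). None of the 3 genes nearest Tenm2 was called, while all 3 nearest Tenm3 were (adjusted p = 0.00316 to 0.00377, limma). The distance uses 4 arrays, so any gene with a difference of like size and even replicates comes out close.

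Tenm3 stayed negative in all 18 alternatives and kept its call in 17. Tenm2 stayed positive in all 18 and was called in 12. Adgrl1 and Adgrl2 stayed positive in all 18. Adgrl3 was negative in 3, which were the mean of its probe sets (-0.03) and the fits without MP amacrine replicate 2 (-0.12) and without MP bipolar replicate 1 (-0.01), and positive in 15. Tenm4, fitted only with no filter on dim probe sets, gave -0.03 (adjusted p = 0.944, limma).

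**Figure D5:**
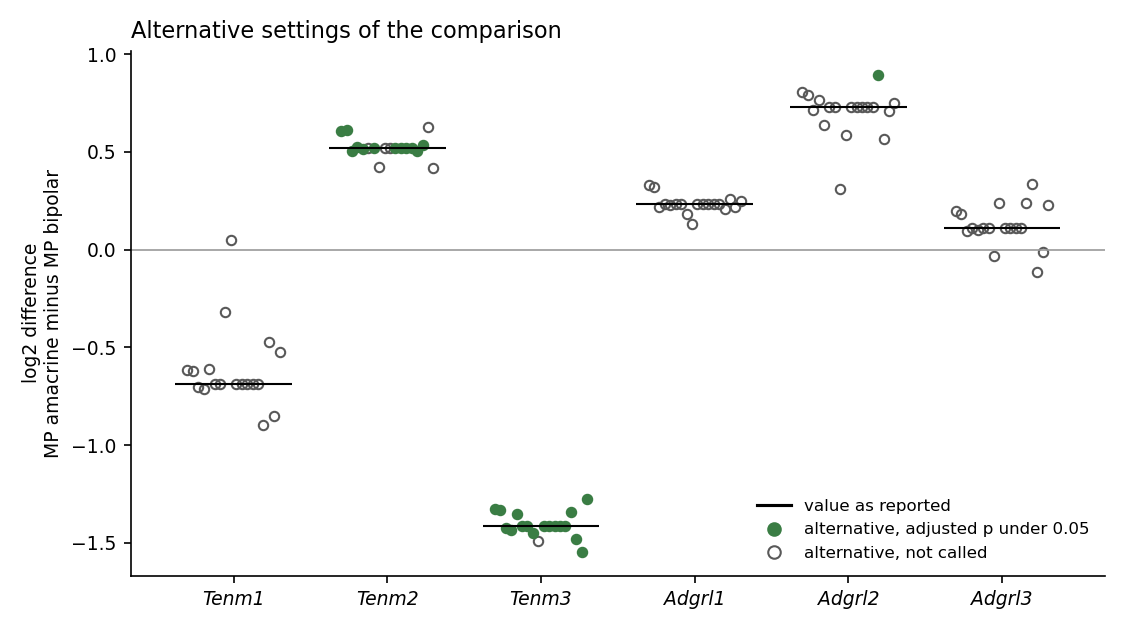
Log2 difference, MP amacrine minus MP bipolar, of the 6 tested genes under 18 alternative settings (points, filled where the adjusted p was under 0.05) beside the reported value (black line). Tenm3 lies between -1.55 and -1.28 and Tenm2 between 0.41 and 0.63, while the points of Tenm1 and Adgrl3 fall on both sides of 0.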

How the data were processed

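The values the authors deposited are linear intensities of 45101 probe sets on 4 arrays. For the software that summarised and scaled them, the name was not given in the sources used here. They were used as log2(intensity + 16), which understates the difference of dim genes. Without the 64 control probe sets, 34945 probe sets have exactly 1 gene in the platform annotation, 932 several and 9160 none. Gene symbols were checked by identifier against the RefSeq genes of GRCm38.p6, which held 18032 of the 18193 genes. The brightest probe set by mean log2 value stood for a gene, and was tested if above the array median on at least 2 of 4 arrays. Groups came from sample titles and were compared by limma 3.58.1 in R 4.3.3 (eBayes with an intensity trend, 2 residual degrees of freedom), two-sided, with Benjamini-Hochberg adjustment over all 11583 tested genes and a threshold of 0.05. The test was checked on simulated data. Replicates came from different litters, but the labels do not say that a shared number pairs samples, and the deviations of same-numbered arrays correlated at -0.04. Members, gene lists and motifs were chosen with earlier results of these data known, the motifs also with the sequences in view. All 7 members, every FLRT gene and every called gene of the lists were named. Genes called nearest were the 3 at the smallest Euclidean distance. A few list genes are not analysed here. Alternatives covered scaling, offset, filter, probe set choice, variance moderation, array weights, threshold, the replicate block and each replicate left out.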

Additional observations from a re-analysis of the deposited data

How the results depend on the processing

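The number of members called, 2 as reported, was 3 at a threshold of 0.1 and 1 at a threshold of 0.01, with no filter, with the mean of all probe sets and with no intensity trend, and 0 with the second brightest probe set (limma). With 1 replicate left out, where the lone array of a group is assumed to vary like the other group, it ranged from 1 to 3, and with probe sets tested singly and no filter it was 1. Tenm2 lost its call with no filter (0.52, adjusted p = 0.110), the mean of all probe sets (0.42, adjusted p = 0.274), the second brightest probe set (0.52, adjusted p = 0.331) and no intensity trend (0.52, adjusted p = 0.148). Tenm3 lost its call with the second brightest probe set (-1.49, adjusted p = 0.0962). With each replicate left out, the difference ranged from 0.41 to 0.63 for Tenm2, from -1.55 to -1.28 for Tenm3, from -0.90 to -0.47 for Tenm1, from 0.57 to 0.89 for Adgrl2, from 0.21 to 0.26 for Adgrl1 and from -0.12 to 0.33 for Adgrl3. The replicate block kept both calls, with adjusted p of 3.51e-05 for Tenm3 and 0.0184 for Tenm2 (limma). It changed no call of the members (1932 calls over all genes, against 1559). The SE rose with the block, from 0.185 to 0.225 for Tenm3 and from 0.120 to 0.154 for Tenm2. The lower adjusted p thus did not come with a tighter estimate. With no filter the calls over all genes were 785, with the second brightest probe set 830, and without MP bipolar replicate 2 they were 917. Other adhesion GPCRs had 1 call with no filter. With each replicate left out these had 1 to 4 calls, and external partners 1 to 2. Leaving out probe sets with the endings _x_at and _s_at, chosen after seeing the data, kept both calls. The cause of these changes was not tested.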

Other observations

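In 8 of the 18 tested member probe sets (44.4%), MP amacrine replicate 2 lay above replicate 1 and MP bipolar replicate 1 above replicate 2, against 27.1% of all 23648 tested probe sets. The order held in 5 of the 6 tested member probe sets whose groups overlapped. Of these 6, 4 belong to Adgrl3, 1 to Tenm1 and 1 to Tenm2, so they are not separate observations. Over all tested probe sets with overlapping groups, 3394 of 11652 had this order. The order was noticed after the values were seen, and was not tested.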
